A study of Mus musculus with 19 samples.

Results

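Midbrain and limb bud that carry the same CTCF site deletion, deltaCTCF i4i5ZRS, were compared at the mouse Shh locus. Contacts were read by capture Hi-C, which joins DNA that lies close together in fixed nuclei, enriches a chosen region with probes and sequences both ends of each junction. The members are the 4 samples whose merged maps carry the names of these 2 groups, out of 19 samples and 9 merged maps in the series. Midbrain i4i5ZRS and limb bud i4i5ZRS were each made from 2 samples of G4 strain at embryonic day E10.5, which the series design describes as technical replicates. Midbrain wild type (2 samples) and limb bud wild type (3 samples), both C57BL/6 at E10.5 and described as biological replicates, were used as another pair of the same tissues with the CTCF sites present. Tissue was therefore compared within a strain in each pair, while genotype and strain cannot be told apart between the pairs. The growth protocol given for all samples speaks of limb dissection only, so how the midbrain was taken is not given in the sources used here. For comparison the series also holds limb bud deltaCTCF i4i5, deltaCTCF i4i5ZRSreg (here i4i5 plus ZRSreg), deltaZRSreg and Lmbr1deltaprom/deltaprom at E10.5, and wild type embryonic stem (ES) cells, all of G4 strain with 2 samples each. By their titles both samples of each mutant group share a library number, as do 2 of the 3 limb bud wild type samples. The allele lacks CTCF sites named i4, i5 and ZRS, and the labels do not say how many clones or embryos were used. Contacts in 10 kb bins show neither marker genes nor the deleted sites, so the labels were not checked against them.

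CTCF binds DNA and, together with cohesin, anchors many chromatin loops and domain borders. Shh encodes Sonic hedgehog, a secreted protein that sets up digit pattern in the limb bud and ventral cell types in the nervous system. Its expression in the limb bud depends on the ZRS, an enhancer far away in an intron of Lmbr1. In the midbrain Shh is driven by other enhancers. The comparison asks which differences between the tissues are seen when the CTCF sites beside the ZRS are gone.

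The maps hold 280 bins of 10 kb on chromosome 5, from 27800001 to 30600000 in the mm9 build. Contact counts recovered from the balanced signal came to 2144694 in midbrain i4i5ZRS and 1983686 in limb i4i5ZRS, and to 2201297 and 2862106 in the wild type pair. A contact is given as observed over expected, that is, relative to the average signal that the map has for its bins at equal separation. Distances are counted from the main bin of the Shh promoter, which is represented by 2 bins (28780001 to 28800000). Each group was deposited as 1 merged map, so no value has a replicate error and no test was possible. Intervals are 95% intervals for counting error only, and they compare these libraries rather than the tissues. A map averages all cells of a tissue, so a contact made in fewer cells and a contact made less often in each cell cannot be told apart. A value was counted as called where the tissues differed by 1.5-fold or more.

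With the CTCF sites deleted, the Shh promoter met the ZRS at a like level in midbrain and limb bud. The ZRS window, 830 to 870 kb above the promoter (29620001 to 29670000), was contacted at 3.62 times the expected signal in midbrain i4i5ZRS (3.32 to 3.94, 538 contacts) and at 3.51 in limb i4i5ZRS (3.21 to 3.82, 506 contacts). The log2 ratio of midbrain over limb was 0.05 (-0.13 to 0.22). Of the 10 bin pairs in this block 5 were higher in midbrain, from -0.43 to 0.69. The wild type tissues met the ZRS at 6.61 and 6.49, a log2 ratio of 0.03 (-0.09 to 0.14). The mutant ratio minus the wild type ratio was 0.02 (-0.19 to 0.23), so a difference within that interval was not detectable at this depth. The deletion went with a fall in this contact of -0.87 (-1.02 to -0.72) in midbrain and -0.89 (-1.04 to -0.74) in limb, a contrast that also crosses strains. The like level in the mutant tissues depends on the window and on which limb map is used. With a window of 800 to 900 kb the log2 ratio was 0.22, and 0.10 above the wild type ratio. With the single bin at 850 kb it was -0.04. Against limb i4i5 the same midbrain map stood 0.49 higher, and against limb i4i5 plus ZRSreg 0.25 higher. Those limb maps are of other alleles and met the ZRS at 2.58 (285 contacts) and 3.05 (620 contacts).

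The promoter's strongest contact beyond 500 kb lay at different bins in the mutant tissues. In midbrain i4i5ZRS this peak lay inside the Shh domain at 810 kb (29600001 to 29610000), at 8.06, just below the ZRS window. In limb i4i5ZRS it lay beyond the upper domain border at 1010 kb (29800001 to 29810000), at 7.98. Midbrain i4i5ZRS had a second peak there at 7.18, and limb i4i5ZRS had 6.16 at 810 kb, so both tissues used both places. The log2 ratio of the 810 kb bin over the 1010 kb bin was 0.17 (-0.08 to 0.42) in midbrain i4i5ZRS and -0.37 (-0.63 to -0.11) in limb i4i5ZRS. The midbrain interval holds 0, so the order of its peaks is not settled at this depth.

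The other maps show the same 2 places. The peak was also at 1010 kb in limb i4i5 (7.34) and in limb i4i5 plus ZRSreg (8.82), which both lack i4 and i5, with 810 over 1010 ratios of -0.42 and -0.60. It was at 810 kb in both wild type tissues, at 9.56 in midbrain and 7.88 in limb, with ratios of 0.88 (0.63 to 1.14) and 0.54 (0.33 to 0.75), and at 820 kb in limb ZRSreg and limb Lmbr1 promoter deletion. Wild type ES cells, which carry all the sites, nevertheless peaked at 1010 kb, at 13.1, with a ratio of -0.52 (-0.71 to -0.33). The 810 and 1010 kb bins were chosen as the peaks of the mutant maps, so the mutant part of this ratio is a description. Midbrain stood above limb in this ratio in both pairs, with intervals that overlap in wild type and do not in the mutant pair. For midbrain over limb, the mutant log2 ratio minus the wild type one was 0.11 (-0.18 to 0.39) at 810 kb. At 1010 kb it was -0.09 (-0.48 to 0.29), and both intervals hold 0. The bins from 790 to 810 kb, the highest 3 of midbrain i4i5ZRS beyond 500 kb, were at 7.60 to 8.06 there. In limb i4i5ZRS they were at 3.90 to 6.16. In wild type they were at 6.89 to 9.56 in midbrain and 5.18 to 7.88 in limb. The mutant ratio minus the wild type ratio was 0.55 (0.13 to 0.97) at 790 kb and 0.19 (-0.15 to 0.54) at 800 kb.

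**Figure D1:**
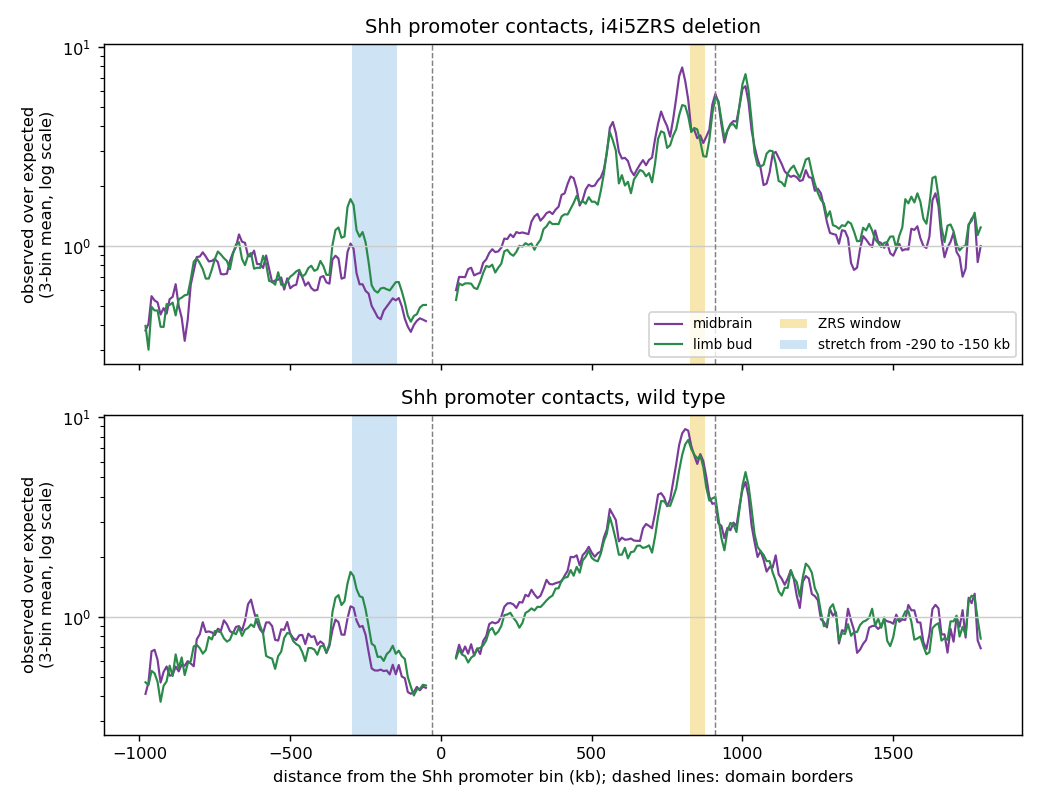
Contacts of the Shh promoter with every bin at 50 kb or more (observed over expected, 3-bin mean, log axis) against distance in kb, for midbrain and limb bud with the i4i5ZRS deletion (top) and wild type (bottom). In the deletion the midbrain line is above the limb line below the ZRS window, with 7.12 against 4.54 at 790 kb, and below it in the stretch from -290 to -150 kb.

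Along the whole promoter profile, midbrain i4i5ZRS made more contact than limb i4i5ZRS inside the Shh domain and less outside it on both sides. The domain runs between insulation minima at -30 kb (28760001 to 28770000) and 910 kb (29700001 to 29710000). Over 259 bins with enough contacts, 2 were called higher in midbrain, 0.772% of all, and 15 lower, 5.79%. The count of higher bins was 22 against limb i4i5 and 14 against limb i4i5 plus ZRSreg. Both of the higher bins lay inside the domain, where 82 of 86 bins were higher in midbrain, with a median log2 ratio of 0.24. Below the lower border 24 of 87 bins were higher and the median was -0.18, and above the upper border 15 of 85 were higher and the median was -0.14. In the wild type pair, where 1 of 262 bins was called higher (0.382%) and 0 lower (0%), 79 of 86 domain bins were higher in midbrain with a median of 0.15. Outside the domain the wild type tissues were close, with medians of 0.02 below and -0.02 above. Close to the border the wild type tissues differed too. With the 500 kb below the lower border the promoter was at 0.611 in midbrain i4i5ZRS and 0.798 in limb i4i5ZRS (-0.38, -0.45 to -0.32), and at 0.707 and 0.813 in wild type (-0.20, -0.26 to -0.15). With the 500 kb above the upper border the log2 ratio was -0.08 (-0.15 to -0.02) in the mutant pair and -0.04 (-0.11 to 0.03) in wild type. The sides differ across the limb maps. Below, both midbrain maps were under all limb maps (0.798 to 0.895). Above, limb i4i5ZRS was the highest limb map (1.78 to 2.66), and midbrain i4i5ZRS, at 2.52, lay among them.

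Shares restate the same promoter contacts as parts of a whole, so a higher share in the domain means a lower share outside it. Bins of the domain under 700 kb took 42.2% of the promoter's signal in midbrain i4i5ZRS (41.6% to 42.8%) and 37.8% in limb i4i5ZRS (37.1% to 38.5%). Bins from 700 kb to the upper border took 14.9% (14.5% to 15.4%) and 12.5% (12.1% to 13.0%). Bins below the lower border took 22.1% (21.6% to 22.6%) and 26.8% (26.3% to 27.5%), the side on which the tissues were farthest apart. The 500 kb above the upper border took 17.2% in midbrain i4i5ZRS and 18.8% in limb i4i5ZRS, both above the 12.1% and 13.1% of the wild type tissues. In wild type the share below the lower border was 24.4% in midbrain and 27.5% in limb.

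The bins that rank highest in the profile lie within the domain, except for the last. At 790 kb (3-bin mean) the promoter was at 7.12 in midbrain i4i5ZRS and 4.54 in limb i4i5ZRS, a log2 ratio of 0.65 (0.48 to 0.82), with 7.28 against 5.42 in wild type (0.42). Both midbrain maps were above all 6 limb maps at this bin, which ran from 3.74 to 5.99. The bins at 310, 430 and 590 kb followed, with log2 ratios of 0.56, 0.53 and 0.53. In wild type these bins had 0.27, 0.22 and 0.22, and there too both midbrain maps lay above every limb map. The mutant pair chose these bins and the lowest ones below, so its own part in such comparisons is a description. Wild type ES cells also lay above every limb map, at 6.53 at 790 kb and at 1.23, 1.94 and 2.38 at 310, 430 and 590 kb. They were below both midbrain maps at each of these bins, but at 590 kb midbrain wild type was nearly level with them at 2.39. At that bin limb ZRSreg was at 2.32, and the wild type tissue ratio had an interval of -0.10 to 0.54. At 430 kb the levels were 2.23 in midbrain i4i5ZRS, 1.99 in midbrain wild type and 1.36 to 1.73 in the limb maps. The fifth bin, at -880 kb, rests on 64 and 43 contacts, and its wild type ratio of -0.20 has the other sign.

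The lowest bins lie outside the domain. At -260 kb the promoter was at 0.643 in midbrain i4i5ZRS and 1.18 in limb i4i5ZRS, a log2 ratio of -0.87 (-1.10 to -0.64), with 0.897 against 1.25 in wild type (-0.48). At -310 kb it was at 0.933 against 1.57 (-0.75, -0.97 to -0.53), with 0.980 against 1.47 in wild type (-0.58). At both bins the 2 midbrain maps lay below all 6 limb maps, the lowest of which were 1.12 and 1.45. The other lowest bins, at 1540, -850 and 1360 kb, rest on 33 to 74 contacts in each mutant map. At 1540 and 1360 kb limb i4i5ZRS had 1.72 and 1.30, the highest of the 6 limb maps, and in wild type the ratios were -0.14 and 0.25. Those differences were seen with this limb map and not across the limb maps.

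Over the whole map most called differences fell in a narrow band, in which a stretch on the far side of Shh from its enhancers contacted the Shh domain less in midbrain. That stretch, from -290 to -150 kb, joined the domain in 409 of the 477 lower patches (85.7%) and in 0 of the 55 higher ones. It was chosen from these same mutant maps, as told below, so these counts are a description. Of all 27636 patches, 1395 join the stretch and the domain. In wild type, whose maps did not choose the stretch, 79 of 98 lower patches (80.6%) and 0 of 34 higher ones did so. Bin pairs were compared in patches of 5 by 5 bins at separations of 100 to 1500 kb, which overlap and are not independent. Of 27636 patches, 55 were called higher in midbrain i4i5ZRS (0.199%) and 477 lower (1.73%). The wild type pair had 34 higher (0.123%) and 98 lower (0.355%). The wild type counts move with the settings. Under total scaling they were 10 higher and 282 lower, beside 78 and 484 in the mutant pair. With the 4 maps of both pairs thinned to the same depth they were 83 and 104, beside 61 and 468. In comparison, a pair of limb maps of G4 strain, ZRSreg and the Lmbr1 promoter deletion, had 19 either way (0.0688%). These limb maps were not thinned and are deeper than the mutant pair, with 2544793 and 3022706 contacts, so their count is not matched for depth. The SD of the log2 ratio over patches was 0.23 in the mutant pair, 0.19 in the wild type pair and 0.15 in that limb pair. Mutant log2 ratios ran from -0.91 to 0.99, so no patch differed by 2-fold in either direction, and the highest of all lay outside the band. Against limb i4i5, the shallowest map, 218 patches were higher in midbrain i4i5ZRS and 992 lower. Patches just inside and just outside the fold differed by less than rounding at a log2 ratio of 0.58 or -0.58.

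**Figure D2:**
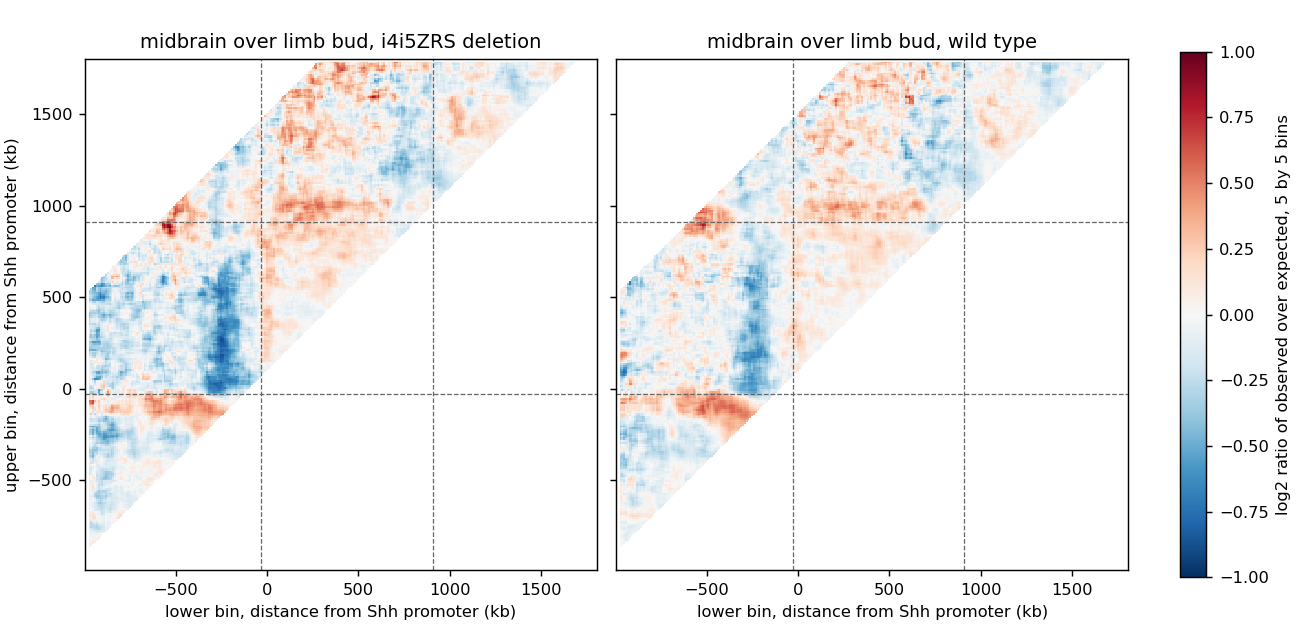
Log2 ratio of midbrain over limb bud (5 by 5 bin means of observed over expected) for bin pairs at 100 to 1500 kb, by distance of the lower and the upper bin from the Shh promoter in kb, for the i4i5ZRS deletion (left) and wild type (right). Blue is lower and red higher in midbrain, dashed lines mark the domain borders, and the blue column near -250 kb, at -0.91 in its lowest patch on the left, is present in both.

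Calls were lopsided by region as well as by sign. Of the 477 lower patches, 470 joined bins below the lower border with the Shh domain, 5.81% of the 8088 patches of that kind. In wild type 95 of the 98 lower patches did so. Among 3570 patches within the domain none was called in either direction in the mutant pair, and their median log2 ratio was 0.10. The 55 higher patches were scattered, with 24 joining the lower side and the domain, 19 the domain and the upper side, and 10 the lower and the upper side. They were also thin, with a median of 100 contacts in the poorer map and 27 of 55 under 100, against a median of 406 for the lower patches.

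Wild type tissue maps, which did not choose these patches, gave most of them the same sign. Of the 55 higher patches 54 were higher in wild type midbrain than in wild type limb, where 49.8% of all patches were, and of the 477 lower patches 468 were lower, where 50.2% of all were. Their median wild type log2 ratios were 0.44 and -0.47, against 0.66 and -0.66 in the mutant pair. The mutant pair chose the patches, so its own medians are a description. Patches called in both pairs numbered 9 higher and 68 lower. These are 16.4% and 14.3% of the mutant calls, and 26.5% and 69.4% of the wild type calls. Both midbrain maps lay above all 6 limb maps in 36 of the 55 higher patches, against 7.98% of all patches. They lay below all 6 in 451 of the 477 lower patches, against 13.4% of all. These counts include the 2 maps that chose the patches. Over all patches the mutant and wild type ratios had a Pearson r of 0.67 and a Spearman rho of 0.63, a description over overlapping patches.

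The 10 lowest patches that are at least 50 kb apart show where the band lies. In 9 of them the lower bin was between -310 and -210 kb and the upper bin between 20 and 530 kb. The lowest joined the bin at -250 kb (28540001 to 28550000) with the one at 260 kb (29050001 to 29060000), at 0.370 in midbrain i4i5ZRS (394 contacts) and 0.696 in limb i4i5ZRS (656 contacts). Its log2 ratio was -0.91 (-1.09 to -0.73), with 0.475 against 0.600 in wild type (-0.34). The bin at -250 kb with 30 kb, just above the promoter, was at 0.333 against 0.597 (-0.84), with -0.61 in wild type. In all 10 the wild type sign was the same, in 3 of them past the fold. The remaining patch joined -910 kb with 500 kb on 134 and 196 contacts, and its wild type ratio was -0.10.

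To see how far the band reaches, the contact of every bin with the Shh domain was compared between the tissues. This scan, its limit of -0.25 and the stretch it gave were chosen from the mutant maps after their values were seen, so the mutant value is a description and the wild type maps are the separate readout. The 15 bins from -290 to -150 kb (28500001 to 28650000) formed the longest run under the limit, and the next longest had 2 bins. In all 24 bins passed it, 8.57% of the map. Their log2 ratios ran from -0.54 to -0.25, against an SD of 0.16 over all 280 bins. In wild type all 15 were lower in midbrain, from -0.48 to -0.18, and 12 passed the limit, as did 15 of all 280 bins (5.36%).

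**Figure D3:**
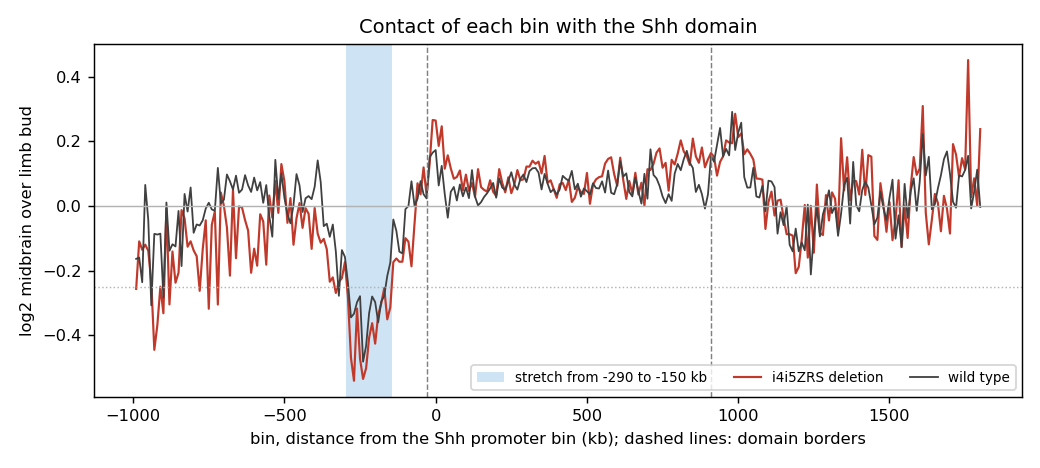
Log2 ratio of midbrain over limb bud for the mean contact of each 10 kb bin with the Shh domain, by distance from the Shh promoter in kb, for the i4i5ZRS deletion and wild type. Both lines dip in the shaded stretch from -290 to -150 kb, to -0.54 and -0.48 at their lowest bins.

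The stretch met the Shh domain at 0.651 times the expected signal in midbrain i4i5ZRS (23776 contacts) and at 0.854 in limb i4i5ZRS (29187 contacts). The log2 ratio was -0.39 (-0.42 to -0.37), a difference of -23.7%. In wild type the levels were 0.787 and 0.976, a ratio of -0.31 (-0.33 to -0.29). The 6 limb maps ran from 0.854 to 0.981 and wild type ES cells were at 0.884, so both midbrain maps were the lowest of the 9. The mutant ratio was below the wild type ratio by 0.08 on the log2 scale (interval of the difference -0.11 to -0.05). Counting error does not cover this, and the spread between libraries, which could, was not measured. The stretch was also chosen by its low mutant ratio, which favours a difference of this sign, so this difference is a description.

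The deficit was larger toward Shh than toward the ZRS in both pairs. With the first 100 kb of the domain the stretch was at 0.379 in midbrain i4i5ZRS and 0.582 in limb i4i5ZRS, a log2 ratio of -0.62 (-0.69 to -0.55). From 100 to 400 kb the ratio was -0.59 in each 100 kb, then -0.46 from 400 to 500 kb and -0.55 from 500 to 600 kb. From 700 to 900 kb, toward the ZRS, they were -0.12 and -0.17. The wild type pair had -0.46 in the first 100 kb, -0.51 in the next, and -0.17 and -0.19 in the last ones. The Shh promoter itself followed the near side, with 0.563 in midbrain i4i5ZRS and 0.817 in limb i4i5ZRS (-0.54, -0.65 to -0.43) and a wild type ratio of -0.40. Intervals of the mutant pair overlap over the first 400 kb, so those segments have no order. The ZRS window met the stretch with a log2 ratio of -0.26 (-0.37 to -0.14), and -0.19 in wild type. Limb maps ran from 1.30 to 2.14 for this contact, and midbrain wild type, at 1.84, lay among them.

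**Figure D4:**
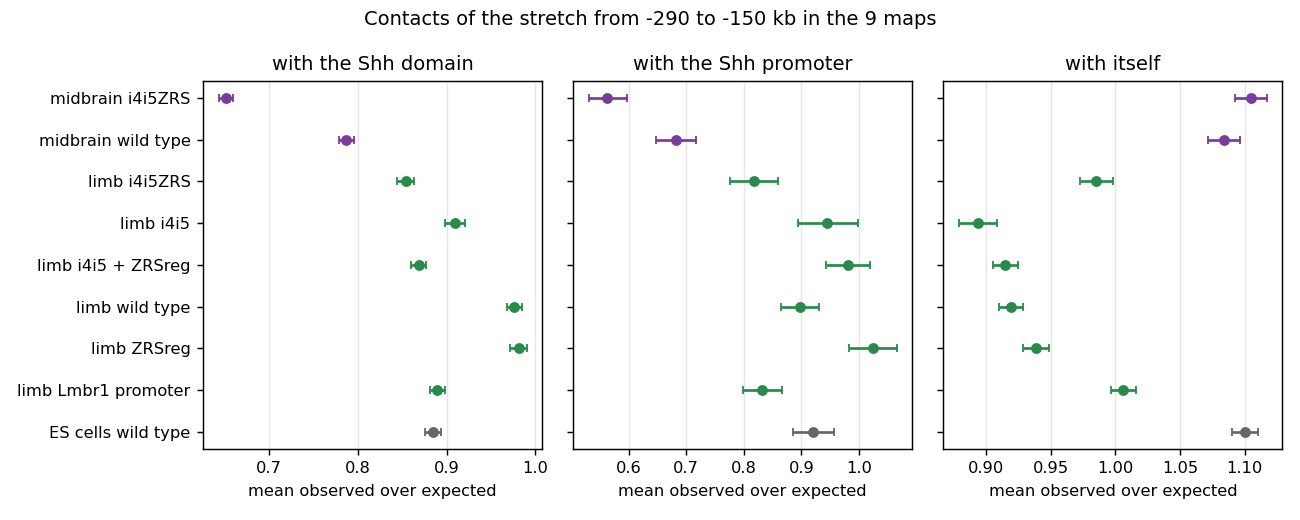
Mean observed over expected of the stretch from -290 to -150 kb with the Shh domain, with the Shh promoter and with itself, in each of the 9 maps, with 95% counting intervals. The midbrain points (purple) are lowest in the first and second panels, at 0.651 and 0.787 with the domain, and above the limb points (green) in the third.

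The stretch was lower in midbrain with distant partners on both sides as well as with the domain. The log2 ratio was -0.24 with bins over 500 kb above the upper border (-0.23 in wild type), -0.12 with the 500 kb above that border (-0.12) and -0.13 with bins over 500 kb below the lower border (-0.14). Nearby it was higher in midbrain. It met itself at 1.10 in midbrain i4i5ZRS and 0.985 in limb i4i5ZRS (0.17, 0.14 to 0.19), and at 1.08 and 0.919 in wild type (0.24). Bins farther below it, within 500 kb of the border, met it at 1.16 and 1.09 (0.10), with 0.17 in wild type. ES cells were at 1.10 for the contact with itself, as high as the midbrain maps, so this value does not set midbrain apart from every other map. Coverage, the share of all contacts that fall on a bin before balancing, differed by a mean log2 ratio of 0.05 over the stretch, within the SD of 0.06 over all bins. In the gene order of the GRCm38.p6 assembly, Rbm33, Cnpy1, En2 and Insig1 follow each other on this side of Shh. En2 encodes an engrailed homeobox factor of the developing midbrain and hindbrain. No gene was placed at a bin, since no gene table of the mm9 build was used here.

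5 other bands of the ratio map, also picked after the mutant values were seen, were 3 higher and 2 lower in midbrain. Bins from -150 to -50 kb, between the stretch and the lower border, met bins from -650 to -200 kb at 1.24 in midbrain i4i5ZRS and 0.955 in limb i4i5ZRS (0.37, 0.35 to 0.40). The wild type pair had 1.21 and 0.923 (0.39), and both midbrain maps were above all 6 limb maps, which ran from 0.914 to 1.08. Bins from 980 to 1030 kb, which hold the upper promoter peak, met domain bins from 50 to 650 kb at 0.916 and 0.714 (0.36, 0.31 to 0.41). In wild type these were at 0.693 and 0.562 (0.30), and limb maps reached 0.740, so midbrain wild type lay among them. Bins from -600 to -450 kb met bins from 850 to 1000 kb, across the whole Shh domain, at 1.21 and 0.935 (0.37, 0.28 to 0.47) with 0.42 in wild type. The limb maps ran from 0.884 to 1.25 here, so midbrain i4i5ZRS lay among them. This block holds the patch ranked highest in midbrain, -560 kb with 880 kb, at 1.57 against 0.868 on 204 and 105 contacts. Of the lower bands, bins from -970 to -800 kb met domain bins from 0 to 600 kb at 0.761 and 0.883 (-0.21, -0.25 to -0.17), with -0.10 in wild type. Both midbrain maps were below all 6 limb maps there, which ran from 0.842 to 0.930. Bins from 640 to 900 kb met the 16 bins that end with the one at 1300 kb, across the upper border, at 0.735 and 0.895 (-0.28, -0.32 to -0.24), with -0.20 in wild type. The limb maps ran from 0.683 to 0.918, so midbrain i4i5ZRS lay among them.

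Taken by domain, contact within the Shh domain was 1.44 in midbrain i4i5ZRS and 1.33 in limb i4i5ZRS, higher by 7.65% in midbrain, and all 93 bins were higher. The limb maps ran from 1.26 to 1.46, so midbrain i4i5ZRS lay among them. The log2 ratio was 0.11 (0.10 to 0.11) against 0.07 (0.07 to 0.08) in wild type, where 91 of 93 bins were higher. The Shh promoter with the domain interior, 100 to 750 kb, was at 1.98 against 1.66 (0.26, 0.21 to 0.30), with 0.18 in wild type. The Shh domain with the 500 kb below it was at 0.769 against 0.856 (-0.15, -0.17 to -0.14), with -0.09 in wild type and 8 of 50 lower-side bins higher in midbrain i4i5ZRS. Midbrain i4i5ZRS was below the limb maps there (0.853 to 0.973), and midbrain wild type, at 0.898, lay among them. The Shh domain with the 500 kb above it was nearly level, at 0.924 against 0.893 (0.05), with 0.03 in wild type. Both mutant values for the upper side were above the wild type ones, 0.732 and 0.715, by 0.34 in midbrain and 0.32 in limb on the log2 scale. The rise on the upper side was thus of like size in both tissues, in a contrast that crosses strains.

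Insulation scores how many contacts cross a bin, from the 10 bins on either side of it, as a log2 value relative to the average bin of that map, and is lower where fewer cross. The lower border was deeper in midbrain i4i5ZRS, at -1.31, than in limb i4i5ZRS, at -1.09. This difference of -0.22 was the second lowest of 260 bins, with the lowest, -0.23, in the next bin at -20 kb, against an SD of 0.08 over bins. All 6 limb maps were between -1.11 and -0.95, and midbrain wild type was at -1.12, with a wild type tissue difference of -0.08. ES cells were at -1.55, deeper than midbrain. The upper border was at -0.56 in midbrain i4i5ZRS and -0.62 in limb i4i5ZRS, a difference of 0.06 within the spread over bins, and at -0.68 and -0.78 in wild type.

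The highest insulation difference lay at -190 kb, inside the stretch described above, at 0.08 in midbrain i4i5ZRS and -0.17 in limb i4i5ZRS. In wild type the values were 0.06 and -0.23. At -180 kb, 5 of the 6 limb maps had a local minimum at or beside this bin, at -0.28 to -0.21, and limb Lmbr1 promoter deletion, at -0.10, had none under -0.2. Midbrain i4i5ZRS was at 0.03, midbrain wild type at 0.00 and ES cells at 0.05. A weak border was thus listed here in limb maps of both strains and in neither midbrain map. Over 260 bins the mutant and wild type differences had an r of 0.82, a description over neighbouring bins.

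**Figure D5:**
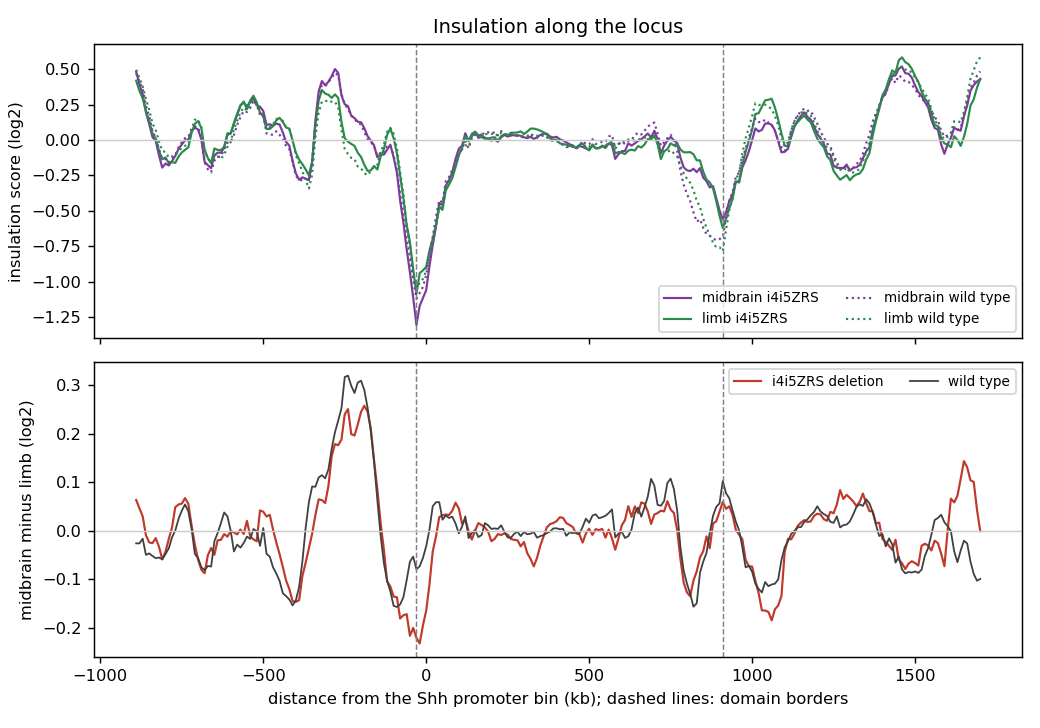
Insulation score of the 4 maps (top) and midbrain minus limb bud (bottom) by distance from the Shh promoter in kb, for the i4i5ZRS deletion and wild type. Midbrain i4i5ZRS reaches -1.31 at the lower border against -1.09 in limb i4i5ZRS, and both midbrain lines stand above the limb lines near -190 kb.

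Patches in which the mutant tissue ratio and the wild type one differed most were thin and far apart. The highest joined 860 kb with 1760 kb, at a mutant ratio of 0.42 and a wild type ratio of -0.43, a difference of 0.85 (0.37 to 1.33) on 111 to 224 contacts. The lowest joined -550 kb with 580 kb, at -0.50 and 0.38, a difference of -0.88 (-1.33 to -0.43) on 131 to 183 contacts. In each of the 5 highest and 5 lowest the mutant and wild type ratios had opposite signs. Both midbrain maps could therefore not lie on the same side of all limb maps, and that comparison says nothing here. The decay of contact with separation was close in the 2 mutant maps. Pairs in neighbouring bins (10 kb) held 18.6% of the signal in midbrain i4i5ZRS and 19.5% in limb i4i5ZRS, and pairs at 300 to 990 kb held 21.7% and 22.0%. In wild type neighbouring bins held 18.1% in midbrain and 16.6% in limb, the other order. Among the limb maps this share ran from 14.7% in limb i4i5 to 20.2% in limb Lmbr1 promoter deletion.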

How the data were processed

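Per the labels' protocols, collagenase-treated tissue was formaldehyde-fixed, digested with DpnII, religated and captured on custom SureSelect beads. Reads were handled with Juicer, SAMtools, Bowtie2 2.3.4.1 and cutadapt 1.15 on mm9, per the submitters' processing notes. The authors deposited a signal per pair of 10 kb bins, KR-balanced, filtered at MAPQ 30 and merged over libraries, per the file names. Unlisted pairs were taken as 0. Balancing hides the depth, so whole contact counts were recovered from the signal (100% lay within 0.01 of a whole count) and used for exact Poisson and conditional binomial intervals. The intervals cover counting error only, since the libraries were merged before deposit. Read pairs carried no molecular identifiers. The members, lists and windows were chosen with earlier results of these data known, and the ZRS window was placed from general knowledge. Named patches and profile bins are the highest and lowest that are 50 kb apart, with at least 100 and 30 contacts in each map. Shares used separations of 20 kb or more, with Wilson intervals, and domain blocks 50 kb or more. Measures and count recovery were tested on simulated maps. Python 3 with numpy and scipy was used. No sequence is shown, since no genome of the mm9 build was used here.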

Additional observations from a re-analysis of the deposited data

Results flagged for a closer look

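Contact between the 500 kb below and the 500 kb above the Shh domain went opposite ways in the 2 tissue pairs. The log2 ratio of midbrain over limb was 0.0387 in the i4i5ZRS deletion (0.0174 to 0.0601) and -0.0349 in wild type (-0.0530 to -0.0167), and the difference between the pairs was not tested, because each group has 1 merged map. With limb i4i5 or limb i4i5 plus ZRSreg in place of limb i4i5ZRS the mutant ratio was -0.0135 and -0.0627, the sign of the wild type pair.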

How the results depend on the processing

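No paired analysis was possible because the libraries were merged before deposit, and leaving out a replicate was not possible for that reason. In all, 151 alternative values of 23 results were computed. Of these, 84 stayed within the counting interval, 1.5 times a count, or (insulation) 1 SD over bins, and 64 moved beyond it. Another 3 changed sign where the interval excluded 0. Sign changes within an interval that holds 0 are among the 84, such as the Shh-ZRS ratio of -0.04 with the single bin at 850 kb. The cause of these changes was not tested. Against limb i4i5 the Shh-ZRS ratio was 0.49, and its difference from wild type 0.46. Against limb i4i5 plus ZRSreg the ratio was 0.25. Called patches were 218 higher and 992 lower against limb i4i5, 86 higher with the median per separation, 399 higher and 850 lower with 3 by 3 bins, 18 higher with 7 by 7 bins, 28 higher with 100 contacts or more, and 0 and 0 at a fold of 2. Higher patches shared their sign with wild type in 100% of cases with counts without balancing, with 7 by 7 bins and with 100 contacts, and in 76.4% with 3 by 3 bins. Lower patches did so in 100% with 7 by 7 bins and 87.1% with 3 by 3 bins. Promoter bins called higher numbered 1 with counts without balancing, 22 against limb i4i5, 14 against limb i4i5 plus ZRSreg, 8 with single bins and 0 with the 5-bin mean.

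Domain blocks have narrow counting intervals, so small changes leave them. Below, values are log2 ratios in the order median per separation, total scaling, counts without balancing and limb i4i5. Within the Shh domain they were 0.12, 0.0833, 0.12 and 0.19, with 0.14 against limb i4i5 plus ZRSreg and 0.11 at 100 kb or more. For the domain with the 500 kb above they were 0.0875, 0.0208, 0.0339 and 0.0325, with 0.0641 against limb i4i5 plus ZRSreg and 0.0680 with a flank of 300 kb. For the domain with the 500 kb below they were -0.11, -0.21, -0.14 and -0.17, with -0.23 for a flank of 300 kb. Within the 500 kb below they were 0.12, 0.13, 0.20 and 0.19, with 0.17 against limb i4i5 plus ZRSreg and 0.18 at 100 kb or more. Within the 500 kb above, the first 3 settings gave -0.0583, -0.00207 and -0.15, a flank of 300 kb gave -0.14, and limb i4i5 plus ZRSreg reversed the sign at 0.00953. Below with above was 0.0688 under total scaling and 0.0101 with a flank of 300 kb, and reversed to -0.0135 against limb i4i5 and -0.0627 against limb i4i5 plus ZRSreg. The stretch with the Shh domain, a setting added after the data were seen, stayed between -0.48 and -0.35. Depth limits the higher patches, since 27 of 55 rest on fewer than 100 contacts.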
